A study of Homo sapiens with 9 samples.

Results

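The stress response centred on the transcription factor ATF4 was followed through 10 genes in K562 cells, a human erythroleukaemia line, by sequencing of poly-A selected RNA. The genes are ATF4, DDIT3, ATF3, CEBPB, TRIB3, DDIT4, DDIT4-AS1, SESN2, CHAC1 and VLDLR, 10 of the 58347 gene rows of the count table. They comprise ATF4 itself and regulators that stress induces. They were chosen by their measured change under rapamycin in the cells carrying the HBG1 guide RNA, that is, with these count values known. For that response the values are therefore given as a description, with no test. All 10 genes passed the filter on low counts, which kept 23675 genes.

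All 9 libraries came from one engineered line, K562-FIRE, grown in Iscove's medium with fetal bovine serum. Every group carried the same introduced constructs: dCas9 with a blasticidin marker (Blast) and MS2-Fkbp with a hygromycin marker (Hygro), both driven by an EF1a promoter, and SS18-Frb, also driven by EF1a, with a puromycin marker (Puro) behind a PGK promoter. dCas9 binds DNA where its single guide RNA (sgRNA) directs it and does not cut it. By linking Fkbp to Frb, rapamycin tethers SS18, a subunit of the BAF chromatin remodelling complex, where the guide binds. One set of cells had an sgRNA against the promoter of HBG1 and the other a non-targeting sgRNA. Treatment lasted 24 h, with DMSO or with rapamycin at 10 nM. There were 3 libraries of HBG1 sgRNA with DMSO, 3 of HBG1 sgRNA with rapamycin, 2 of non-targeting sgRNA with rapamycin and 1 of non-targeting sgRNA with DMSO. The study asked whether the cell's own BAF, recruited in this way, could activate HBG1. Nothing in the labels says that replicates were separate cultures, so p-values measure only the spread between these libraries, which may be technical.

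Libraries held 19797409 to 31619671 counts. The targeted gene, HBG1, stood at 8233 TMM-scaled CPM (counts scaled to a common library size) in the non-targeting DMSO library and at 8851 to 8944 with non-targeting sgRNA and rapamycin. With the HBG1 sgRNA it stood at 137 to 436 CPM under DMSO and at 1533 to 2448 under rapamycin; reads of its near-identical copy HBG2 may be shared with it. Of the erythroid markers, 10 of 10 passed the filter, with a summed level of 5329 to 16738 CPM under DMSO and 6010 to 19841 under rapamycin. Among them HBE1 differed between sgRNAs, at 2030 to 2979 CPM in the non-targeting libraries and 6597 to 14590 with the HBG1 sgRNA. Summed markers stayed at 4.14 to 6.20 CPM for T cells, 1.14 to 3.87 for B cells, 14.8 to 29.7 for monocytes, 5.70 to 26.5 for fibroblasts and 0 to 0.516 for hepatocytes. The epithelial list reached 530 to 773 CPM, most of it KRT8 and KRT18, with CDH1 at 0 to 0.129 CPM and KRT5 at 0 in all 9 libraries. HBG1 sgRNA replicate 1 stood apart from replicates 2 and 3 in both treatments. For ATF4, DDIT3, DDIT4 and CHAC1 the change with the HBG1 sgRNA is also given without the rapamycin library of replicate 1.

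In the integrated stress response, kinases that sense amino acid shortage, misfolded protein, viral RNA or haem shortage phosphorylate the initiation factor eIF2. Translation then falls in general, while that of ATF4 mRNA goes up. ATF4 binds DNA as a dimer with C/EBP and other bZIP proteins and turns on genes of amino acid supply, redox balance and, under lasting stress, cell death. The growth kinase complex mTORC1, which rapamycin inhibits, also raises ATF4, and several ATF4 targets in turn hold mTORC1 back.

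Promoters show which members carry the letters these factors are known to bind. RefSeq promoters (GRCh38.p14; 250 bases before to 50 after the start) were found for 10 of 10 symbols. For DDIT4-AS1 the RefSeq gene does not overlap the counted one, so 9 were searched, on both strands. The composite ATF4 and C/EBP site, searched as TGATGNAA or its complement TTNCATCA, occurred in CHAC1 and ATF3, 2 of 9, against 3.62% of all 35116 promoters. The E-box CACGTG, the site of bHLH factors, occurred in ATF4 and in 7.26% of all promoters. ACGTG, the core of the hypoxia response element, which also lies within each CACGTG, occurred in ATF4 and DDIT4 and in 21.4% of all. CCAAT occurred in 6 of 9 and in 34.6% of all. The 3 stretches of 30 bases below show the composite sites and the E-box, and the 246 bases before the DDIT4 start show the promoter of DDIT4, the protein-coding member with the lowest log2 fold change under rapamycin with the non-targeting sgRNA. Capitals mark the matches (ATTGG is CCAAT on the other strand), and all are written on the + strand of GRCh38.p14.
CHAC1, chr15:40953251-40953280: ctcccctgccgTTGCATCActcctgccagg
ATF3, chr1:212565205-212565234: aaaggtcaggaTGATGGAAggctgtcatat
ATF4, chr22:39520465-39520494: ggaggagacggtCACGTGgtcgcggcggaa
DDIT4, chr10:72273674-72273919: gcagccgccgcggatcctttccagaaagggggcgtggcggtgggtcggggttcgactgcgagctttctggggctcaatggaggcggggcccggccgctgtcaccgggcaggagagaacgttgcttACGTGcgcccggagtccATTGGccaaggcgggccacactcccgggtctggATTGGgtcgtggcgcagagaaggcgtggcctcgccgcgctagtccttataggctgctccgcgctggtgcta
A match is a run of letters and not a measured binding site. By GENCODE 29 all 30 bases of the CHAC1 and of the ATF4 stretch lie within exons of those genes, whose annotated spans begin before the RefSeq start, while the ATF3 and DDIT4 stretches lie in no exon. The CHAC1 match begins 209 bases before the RefSeq start and the ATF3 match 191 bases before it. The DDIT4 matches lie within 125 bases of its start.

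The rapamycin response with the non-targeting sgRNA was not the one by which the genes were chosen, and served as their test. Earlier results of these data were known at the choice, so the test is not fully independent of it. Under rapamycin DDIT4 fell 3.02-fold, DDIT4-AS1 3.19-fold, TRIB3 1.74-fold and CEBPB 1.74-fold. These 4 of 10 genes passed edgeR's quasi-likelihood test at a Benjamini-Hochberg adjusted p under 0.05, against 0.566% of all genes tested that were called lower (134 of 23675; another 0.325% were called higher). DDIT4 and DDIT4-AS1 may share reads, so in this and the following counts they may be 1 signal counted as 2 genes. DDIT3, CHAC1, ATF4, SESN2 and ATF3 were also lower in both rapamycin libraries than in the DMSO library, but did not pass. In RNA from whole cultures, fewer cells expressing a gene and less RNA per cell cannot be told apart. At an unadjusted p under 0.05 stood 8 of 10, against 14.1% of all genes. Without VLDLR, which had too few counts for a fold change, the median log2 fold change of the 9 genes was -0.80 and all 9 were below 0, against a median of 0.03 and 46.7% below 0 over all genes. In 9 of 10 genes both rapamycin libraries lay below the DMSO library, against 35.4% of all genes. The group with DMSO is 1 library and is assumed to vary like the other groups, whose spread the fit of all 9 libraries shares. With only 1 of the 2 rapamycin libraries kept, 1 library stands against 1, and no call is read from such a fit. The log2 fold change of DDIT4 was then -1.71 without replicate 1 and -1.48 without replicate 2. The 4 calls therefore rest on having both rapamycin libraries.

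**Figure D1:**
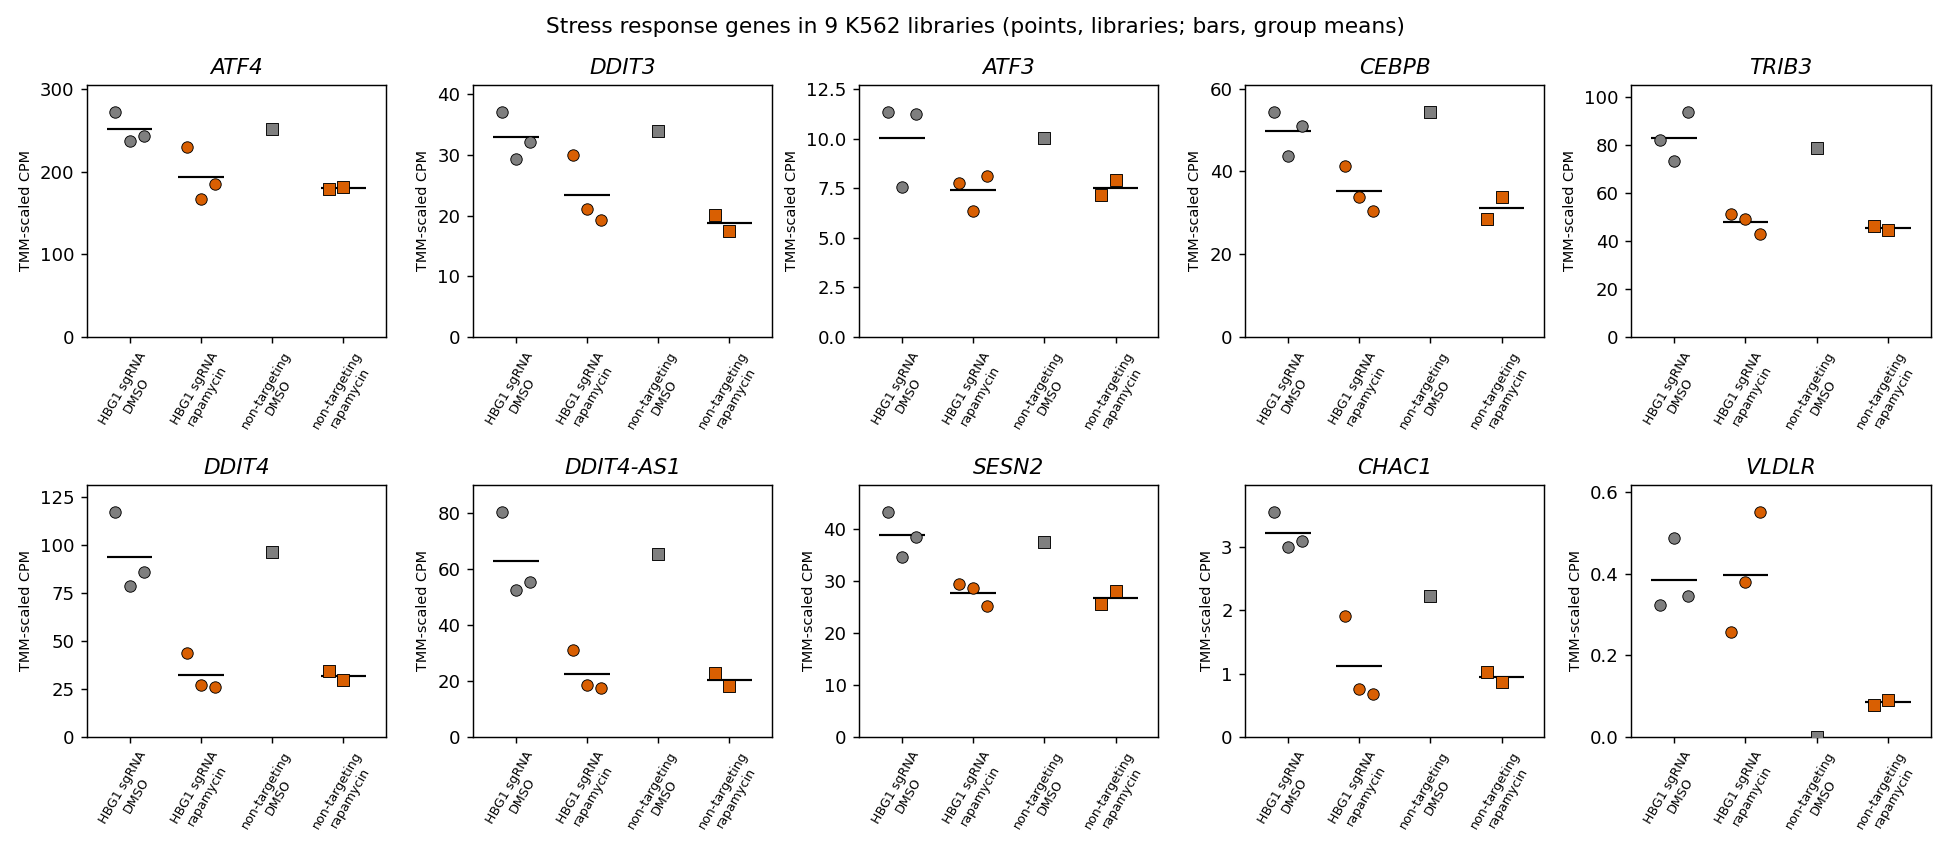
Level of each gene in TMM-scaled CPM (vertical axes start at 0) in the 9 libraries, by sgRNA and treatment; each point is a library and each bar a group mean. DDIT4 stood at 26.0 to 43.4 CPM in the 5 rapamycin libraries and at 78.4 to 117 in the 4 DMSO libraries, while ATF3 and DDIT3 of the HBG1 groups overlapped.

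ATF4, the factor that drives the programme, lies on chromosome 22 (GENCODE 29, GRCh38, 39519695 to 39522685, + strand). With the non-targeting sgRNA it stood at 252 CPM under DMSO and at 179 and 181 CPM under rapamycin. In the HBG1 sgRNA cells it stood at 272, 237 and 243 CPM in DMSO replicates 1, 2 and 3 and at 230, 166 and 185 CPM in the rapamycin replicates of the same numbers. Every rapamycin library lay below every DMSO library, and HBG1 rapamycin replicate 1 was the highest of the 5. With the non-targeting sgRNA its log2 fold change was -0.48 (SE 0.15, edgeR adjusted p = 0.138), which missed the threshold. Over the alternatives that left out a library this p ran from 0.0214 to 0.400; without HBG1 rapamycin replicate 1 it was 0.0214. The p was 0.0362 by DESeq2, 0.00594 by edgeR with no filter on low counts, and 0.00785 with the replicate number as a block within each sgRNA, which compares the libraries numbered 2. The call on ATF4 thus depended on the tool, the filter and the pairing, while the log2 fold change stayed between -0.59 and -0.45 over the alternatives run. The HBG1 sgRNA cells gave -0.37, and -0.51 without rapamycin replicate 1. RNA levels do not measure the translation of ATF4, through which stress mainly acts on it.

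DDIT3 encodes CHOP, a bZIP protein that ATF4 induces and that promotes cell death when stress lasts. It stood at 34.0 CPM in the non-targeting DMSO library and at 20.01 and 17.4 CPM in the rapamycin libraries. The log2 fold change was -0.86 (SE 0.21, adjusted p = 0.0718), short of the threshold in edgeR, with a range of p from 0.00915 to 0.269 when 1 library was left out. In edgeR it passed without HBG1 rapamycin replicate 1 (adjusted p = 0.00915), without HBG1 DMSO replicate 1 (0.0482), and by DESeq2 (0.00935), and in edgeR with no filter (0.000209) and with the replicate block within each sgRNA (0.00137). The HBG1 sgRNA libraries with DMSO stood at 37.1, 29.4 and 32.1 CPM and those with rapamycin at 29.9, 21.0 and 19.3. Rapamycin replicate 1 overlapped DMSO replicate 2 there, and the log2 fold change was -0.50. It moved to -0.71 without rapamycin replicate 1 and to -0.40 without DMSO replicate 1. DDIT3 lies on the - strand of chromosome 12 (57516588 to 57521737), and 27.2% of its exon bases are shared with exons of MARS on the other strand. MARS held 5.84 to 9.80 counts for each DDIT3 count, so DDIT3 counts may include reads of MARS if strand was not used in counting.

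ATF3, a bZIP protein of the early stress response that can repress its targets, was a low gene. With the non-targeting sgRNA it stood at 10.0 CPM under DMSO and at 7.14 and 7.91 CPM under rapamycin. The log2 fold change of -0.42 (SE 0.27, adjusted p = 0.519) did not pass the edgeR test. With the HBG1 sgRNA the DMSO libraries stood at 11.3, 7.57 and 11.2 CPM and the rapamycin libraries at 7.74, 6.37 and 8.12. DMSO replicate 2 lay among the rapamycin libraries, and the log2 fold change moved from -0.43 to -0.60 without it.

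CEBPB, a C/EBP protein that can pair with ATF4 and CHOP, fell from 54.3 CPM in the non-targeting DMSO library to 28.6 and 33.8 CPM under rapamycin. Its log2 fold change was -0.80 (SE 0.17), with an edgeR adjusted p of 0.0388. This call was the least firm of the 4. In edgeR it was lost with upper quartile scaling (adjusted p = 0.0591), without HBG1 DMSO replicate 2 (0.0542) or 3 (0.0651) and without all HBG1 DMSO libraries (0.0580). Leaving out 1 HBG1 library gave a range from 0.00844 to 0.0651. Without non-targeting rapamycin replicate 1 the log2 fold change was -0.68, and without replicate 2 it was -0.93. Among HBG1 sgRNA libraries the DMSO replicates stood at 54.4, 43.7 and 51.0 CPM and the rapamycin replicates at 41.2, 33.9 and 30.5. These groups did not overlap, and the log2 fold change was -0.50. The gene lies on chromosome 20 (50190734 to 50192689, + strand), and 11.8% of its exon bases are shared with CEBPB-AS1 on the other strand, which held 0.312 to 0.452 counts for each of its counts.

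TRIB3, a pseudokinase that ATF4 and CHOP induce and that feeds back on ATF4, fell under rapamycin. With the non-targeting sgRNA it stood at 79.1 CPM under DMSO and at 46.1 and 44.8 CPM under rapamycin. The log2 fold change was -0.80 (SE 0.14, edgeR adjusted p = 0.0189). The call held in every alternative tried that kept both non-targeting rapamycin libraries. With 1 of them left out the log2 fold change was -0.82 (without replicate 1) or -0.78 (without replicate 2). Cells with the HBG1 sgRNA held 82.4, 73.4 and 94.0 CPM under DMSO and 51.4, 49.4 and 43.1 CPM under rapamycin. The treatments did not overlap with either sgRNA, and the log2 fold change with the HBG1 sgRNA was likewise -0.80. The gene lies on chromosome 20 (362835 to 397559, + strand) and overlaps no other gene in GENCODE 29.

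DDIT4, also called REDD1, is induced by stress and low oxygen and inhibits mTORC1 through the TSC complex. It lies on chromosome 10 (72273920 to 72276036, + strand), directly after the 246 bases printed above. With the non-targeting sgRNA it stood at 96.1 CPM under DMSO and at 34.4 and 29.3 CPM under rapamycin. In HBG1 sgRNA cells it stood at 117, 78.4 and 85.6 CPM under DMSO and at 43.4, 27.0 and 26.0 CPM under rapamycin. The lowest DMSO library was well above the highest rapamycin library. The log2 fold change with the non-targeting sgRNA was -1.59 (SE 0.25, edgeR adjusted p = 0.00797), with a range of p from 0.000425 to 0.0897 when 1 library was left out. The value in HBG1 sgRNA cells was -1.55. HBG1 replicate 1 held the highest DDIT4 level of its group under both treatments, and the change with the HBG1 sgRNA moved to -1.36 without its DMSO library and to -1.83 without its rapamycin library. Within same-numbered libraries the log2 changes were -1.43, -1.54 and -1.72.

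DDIT4-AS1 is annotated as an antisense gene inside DDIT4 (chromosome 10, 72274915 to 72275980, - strand). All 847 of its exon bases lie within exons of DDIT4, where they make up 41.2% of the 2058 exon bases. It stood at 65.1 CPM in the non-targeting DMSO library and at 22.8 and 18.0 CPM with rapamycin, a log2 fold change of -1.67 (SE 0.28, edgeR adjusted p = 0.0112). Cells with the HBG1 sgRNA stood at 80.4, 52.3 and 55.2 CPM under DMSO and at 31.1, 18.4 and 17.3 CPM under rapamycin. Its level thus followed that of DDIT4 library by library. For each DDIT4 count there were 0.613 to 0.717 DDIT4-AS1 counts, a mean of 0.669 ± 0.0286 (SD, n = 9 libraries). The mean ratio was 0.666 ± 0.0205 (SD, n = 3) with HBG1 sgRNA and DMSO and 0.688 ± 0.0261 (SD, n = 3) with rapamycin, and 0.638 ± 0.0355 (SD, n = 2) with non-targeting sgRNA and rapamycin against 0.678 in the single DMSO library. The ratio varied little while the counts themselves differed several-fold between treatments. The strand setting of the counting is not given in the sources used here, so reads of the 2 genes cannot be told apart, and the 2 calls are not independent of each other. With the counts of both genes added into 1 feature, the log2 fold change was -1.63 (SE 0.25, edgeR adjusted p = 0.00922) with the non-targeting sgRNA and -1.53 with the HBG1 sgRNA.

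**Figure D2:**
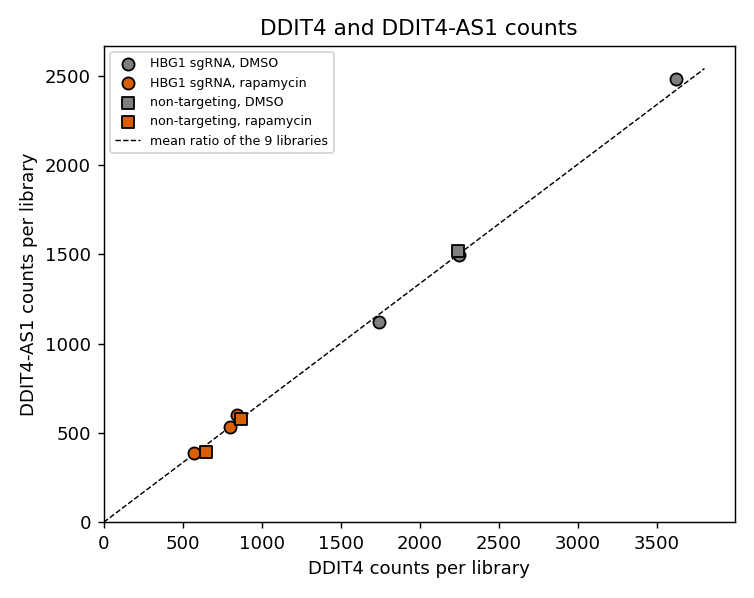
Counts of DDIT4-AS1 (vertical axis) against counts of DDIT4 (horizontal axis) in the 9 libraries, by sgRNA (circle, HBG1; square, non-targeting) and treatment (grey, DMSO; orange, rapamycin). All points lie near the dashed line of the mean ratio, 0.669 DDIT4-AS1 counts for each DDIT4 count.

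SESN2, a leucine-sensing stress protein that restrains mTORC1, stood at 37.4 CPM in the non-targeting DMSO library and at 25.6 and 28.0 CPM with rapamycin. The log2 fold change of -0.48 (SE 0.16, adjusted p = 0.164) did not pass the edgeR test. In cells with HBG1 sgRNA the level was 43.4, 34.6 and 38.5 CPM under DMSO and 29.5, 28.7 and 25.1 CPM under rapamycin. The 5 rapamycin libraries lay below all 4 DMSO libraries, and the log2 fold change with the HBG1 sgRNA was -0.49. SESN2 lies on chromosome 1 (28259527 to 28282491, + strand).

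CHAC1, an enzyme that breaks down glutathione, had few counts: 52 in the non-targeting DMSO library and 26 and 19 with rapamycin, which is 2.23, 1.03 and 0.864 CPM. With the HBG1 sgRNA it held 110, 86 and 63 counts under DMSO (3.56, 3.00 and 3.10 CPM) and 37, 16 and 21 under rapamycin (1.91, 0.760 and 0.682 CPM). All rapamycin libraries were below all DMSO libraries, with HBG1 rapamycin replicate 1 nearest to them. The log2 fold change with the non-targeting sgRNA was -1.23, of a size near that of DDIT4, but its SE of 0.54 was the largest of the 9 genes and it did not pass (edgeR adjusted p = 0.316). HBG1 sgRNA cells gave -1.56, and the same-numbered pairs gave -0.90, -1.98 and -2.18. The value of -1.56 moved to -2.16 without HBG1 rapamycin replicate 1 and to -1.48 without HBG1 DMSO replicate 1. CHAC1 lies on chromosome 15 (40952962 to 40956519, + strand).

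VLDLR, a lipoprotein receptor that ATF4 can induce, was near the limit of detection, with 65 counts in all libraries together. It held 10, 14 and 7 counts with HBG1 sgRNA and DMSO, 5, 8 and 17 with HBG1 sgRNA and rapamycin, 2 and 2 with non-targeting sgRNA and rapamycin, and 0 with non-targeting sgRNA and DMSO. A count of 0 there allows up to 3 counts, or 0.129 CPM. The 2 treatments with the HBG1 sgRNA overlapped. VLDLR passed the filter only through HBG1 libraries, the group where its counts were higher. No ratio between the sgRNAs is therefore given, and nothing is read from its tests between them.

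The levels can be compared between genes per kilobase of exon. Over the 9 libraries the mean was 86.0 CPM per kb for ATF4, 47.3 for DDIT4-AS1, 29.01 for DDIT4, 21.1 for CEBPB, 20.4 for DDIT3, 18.2 for TRIB3, 9.36 for SESN2, 2.13 for ATF3, 0.925 for CHAC1 and 0.0299 for VLDLR. Reads counted for DDIT4-AS1 may be those of DDIT4, so its place above DDIT4 is not read as a higher level. With HBG1 sgRNA and DMSO, CEBPB at 25.4 ± 2.78, DDIT3 at 25.1 ± 2.98 and TRIB3 at 24.2 ± 3.01 CPM per kb (SD, n = 3) did not differ beyond their spread. DDIT4 stood above them at 45.6 ± 10.1 CPM per kb. Under rapamycin it stood at 15.6 ± 4.75 CPM per kb, among CEBPB at 18.0 ± 2.80, DDIT3 at 17.9 ± 4.37 and TRIB3 at 14.0 ± 1.26 (SD, n = 3).

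The response with the HBG1 sgRNA, which chose the genes, had the same direction in 9 of 9 genes without VLDLR, with a median log2 fold change of -0.50 against 0.02 over all genes. No overlap, with all 3 rapamycin libraries below all 3 DMSO libraries, was seen in 7 of 10 genes, against 13.1% of all genes. The exceptions were DDIT3, ATF3 and VLDLR. In that comparison 4.05% of all genes were called lower. Over both sgRNAs, all 5 rapamycin libraries lay below all 4 DMSO libraries in the same 7 genes: ATF4, CEBPB, TRIB3, DDIT4, DDIT4-AS1, SESN2 and CHAC1. Of all genes 8.29% did so. These counts all use the HBG1 libraries that chose the genes, so nothing is read from them beside the shares of all genes. The 2 responses share no library but share the fit's estimate of spread.

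**Figure D3:**
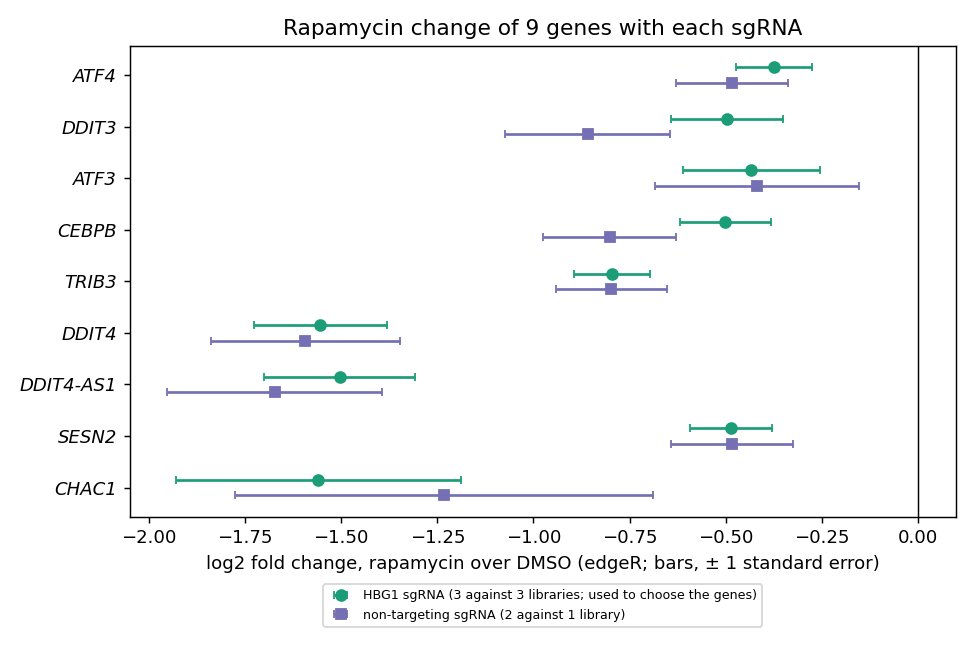
Log2 fold change of rapamycin over DMSO (horizontal axis) for 9 genes with each sgRNA, with bars of 1 standard error on either side from the edgeR fit. All values are below 0, from -1.67 to -0.37, and DDIT4, DDIT4-AS1 and CHAC1 lie lowest with both sgRNAs.

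Whether the sgRNA mattered was tested in 3 ways, and no member passed. Under rapamycin HBG1 against non-targeting sgRNA gave calls for 0 of 10 genes, against 0.0296% of all genes, and under DMSO for 0 of 10, against 0.0253%. The difference between the 2 sgRNAs in the rapamycin response was called for 0 of 10 genes, against 0.00422%, and 1 arm of it is the response that chose the genes. These counts are from edgeR, and DESeq2 and limma voom also gave 0 in each. At an unadjusted p under 0.05 edgeR gave 0, 1 and 0 of 10, against 6.27%, 3.04% and 2.86% of all genes. The 1 was VLDLR, which passed the filter only through HBG1 libraries, so it is not read as a difference between sgRNAs. Among the other 9 genes the largest log2 difference under rapamycin was 0.32 for DDIT3 (SE 0.17, adjusted p = 0.786). Under DMSO it was 0.53 for CHAC1 (SE 0.51, adjusted p = 1). The rapamycin response differed most for DDIT3, by 0.36 (SE 0.26, adjusted p = 1.00). Without HBG1 rapamycin replicate 1 the largest difference was that of CHAC1, at -0.93 (SE 0.58, edgeR adjusted p = 1.00), and limma voom also placed CHAC1 first, at -0.55. For DDIT4 the response differed by 0.04 (SE 0.31), and for ATF4 by 0.11 (SE 0.18). The SEs of the 9 genes ran from 0.18 to 0.67 for this difference, so the missed threshold does not show that the responses were alike.

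The wider pathway was described with 8 lists of genes, in the same non-targeting response. The lists were also chosen with earlier results of these data known. Beside the shares given above for edgeR (0.566% of all genes called lower, 0.325% higher, 14.1% at an unadjusted p under 0.05 and 46.7% below 0), DESeq2 called 6.13% of the 11741 genes to which it gave an adjusted p, and limma voom called 0.98% of all genes. Of other ATF4 targets, 5 of 36 tested genes fell and 0 rose by edgeR, and 33 of 36 were below 0 with a median log2 fold change of -0.49. At an unadjusted p under 0.05 edgeR placed 25 lower and 1 higher, DESeq2 called 17 lower and 1 higher, and limma voom called 10 lower. Called among them were PSAT1 of serine synthesis at -1.05 (SE 0.13, edgeR adjusted p = 0.00579) and VEGFA, the vascular growth factor, at -0.65 (SE 0.14, adjusted p = 0.0430). The other called genes, named after their values were seen, were the amino acid transporter SLC7A5 at -0.96, the tryptophanyl-tRNA synthetase WARS1 at -0.73 and the folate enzyme MTHFD2 at -0.51. The lowest and highest named genes that missed the threshold were GPT2, an alanine aminotransferase, at -1.42 (SE 0.36, adjusted p = 0.0770), PPP1R15A, a regulator of eIF2 dephosphorylation, at 0.41 (adjusted p = 0.109) and the glycine transporter SLC6A9 at 0.14. With the HBG1 sgRNA, whose response chose the members and is only described, 22 of the 36 were called lower and 1 higher, where 4.05% and 2.75% of all genes were; nothing is read from these counts.

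Of the kinases, eIF2 subunits and other genes that control the integrated stress response, 0 of 16 were called by edgeR with the non-targeting sgRNA, and the median was -0.14. At an unadjusted p under 0.05 edgeR placed 5 lower and 3 higher, DESeq2 called 1 lower and 2 higher, and limma voom called 0. EIF2B2 stood at -0.43 and EIF2B1 at -0.39, both subunits of the factor that recharges eIF2, while IMPACT, an inhibitor of the eIF2 kinase GCN2, stood at 0.68. Of bZIP partners of ATF4 and CEBPB 0 of 32 were called by edgeR (median -0.10; unadjusted, 4 lower and 1 higher; DESeq2 2 lower, limma voom 0), with CEBPD at -0.72, FOSL1 at -0.60 (adjusted p = 0.0574), TEF at 0.48 and NRL at 0.67. Of targets of XBP1 and ATF6, the other arms of the unfolded protein response, 2 of 20 fell and 0 rose by edgeR, with a median of -0.23 and 18 of 20 below 0. At an unadjusted p under 0.05 edgeR placed 9 lower and 0 higher, DESeq2 called 4 lower and limma voom 2 lower. Of the 2 called by edgeR with the non-targeting sgRNA, SDF2L1, an endoplasmic reticulum co-chaperone factor, stood at -0.71 (SE 0.10, adjusted p = 0.00617). The other was the chaperone HSPA5, named after its value was seen, at -0.68 (SE 0.10, adjusted p = 0.00617). MANF stood at -0.77 but did not pass (adjusted p = 0.295), and EDEM1 and DNAJB9 stood at 0.12 and 0.14. In the HBG1 response, as a description, 8 of the list were called lower and 0 higher, where 4.05% and 2.75% of all genes were.

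Genes induced by low oxygen, of which DDIT4 is also one, had 2 of 15 called lower and 0 higher by edgeR, with a median of -0.18. At an unadjusted p under 0.05 edgeR placed 3 lower and 2 higher, and DESeq2 and limma voom called 2 lower each. The genes called by edgeR were VEGFA, which is on the ATF4 list as well, and HK2, a hexokinase, at -0.99 (SE 0.15, adjusted p = 0.00797). NDRG1 stood at the other end at 1.503 (SE 0.48, adjusted p = 0.156), and EGLN3, a prolyl hydroxylase, at 0.40. Immediate early genes, which growth signals and stress switch on within minutes, had 0 of 15 called by edgeR and a median of 0.20, on the other side of 0 from the members. Unadjusted, 0 stood lower and 3 higher, DESeq2 called 2 higher and limma voom 0. IER3 stood at -0.29, FOS at -0.13, BTG2 at 0.51 and KLF10 at 0.65 (adjusted p = 0.0665). Upstream regulators of mTORC1 had 0 of 17 called by edgeR, DESeq2 and limma voom (unadjusted in edgeR, 1 lower and 2 higher) and a median of -0.09, with AKT1 at -0.32, WDR59 at -0.25, NPRL3 at 0.35 and CASTOR2 at 0.91.

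The relatives of the members had no call of their own by edgeR. Of 14 tested, 0 were called by edgeR, 7 were below 0 and the median log2 fold change was -0.10. Unadjusted, 4 stood lower and 1 higher in edgeR, DESeq2 called 1 lower and limma voom 0. Beside SESN2 at -0.48, SESN1 stood at 0.16 (SE 0.18) and SESN3 at 0.80 (SE 0.30, adjusted p = 0.228). Beside TRIB3 at -0.80, TRIB1 stood at 0.28 (SE 0.22) and TRIB2 at 0.09 (SE 0.12). Beside CEBPB at -0.80, CEBPD stood at -0.72 (SE 0.40), CEBPG at -0.51 (SE 0.15) and CEBPA at 0.16 (SE 0.67). ATF5, the factor closest to ATF4, stood at -0.52 (SE 0.16, adjusted p = 0.140) beside its -0.48. Whether a member differed from its relatives was not tested.

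**Figure D4:**
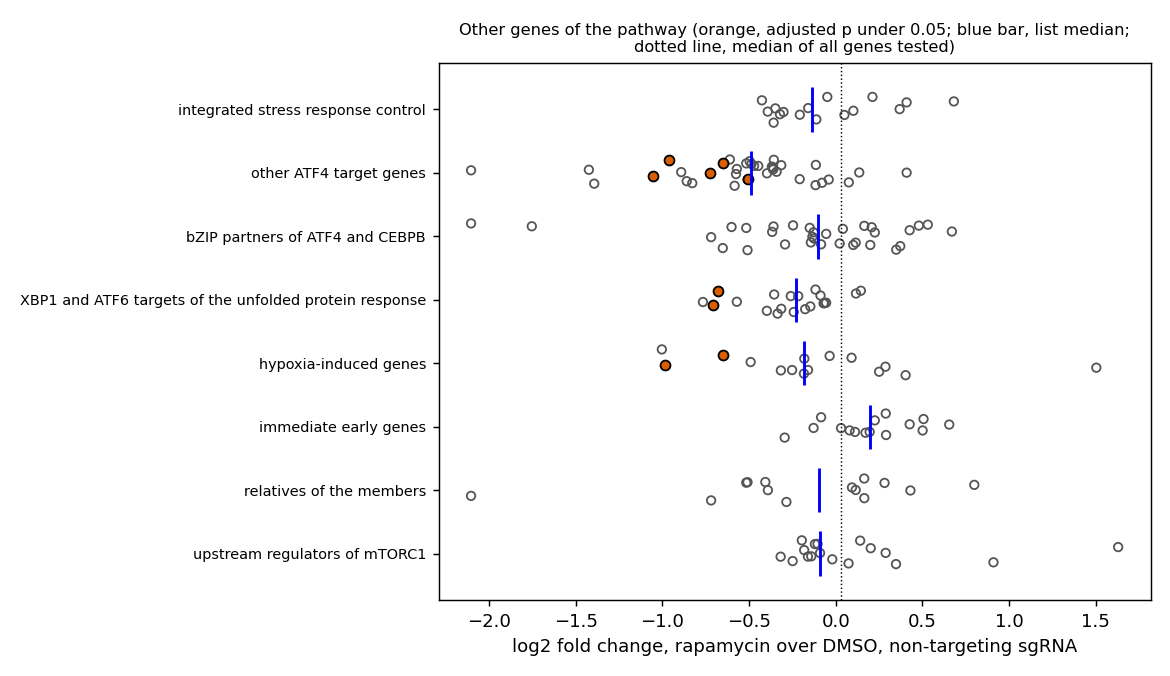
Log2 fold change of rapamycin over DMSO with the non-targeting sgRNA (horizontal axis) for each tested gene of the 8 lists, with called genes filled, a bar at each list's median and a dotted line at the median of all genes, 0.03. The list of other ATF4 targets has its median at -0.49 and the immediate early genes theirs at 0.20.

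The profiles most like those of ATF4, DDIT4 and CHAC1 over the 9 libraries were sought among 10595 genes, by the root mean square (RMS) difference of log2 CPM after each gene was centred on its own mean. Nearest to ATF4 were TOMM6, a subunit of the mitochondrial import pore (RMS 0.0539), DNTTIP2 (0.0638) and MMACHC, a cobalamin-processing protein (0.0639). Nearest to DDIT4 were PHGDH, the first enzyme of serine synthesis (0.319), STAR, a mitochondrial cholesterol carrier (0.356), and PSAT1 (0.367). Nearest to CHAC1 were PHGDH (0.354), ASNS, the asparagine synthetase (0.451), and PSAT1 (0.456). DDIT4 and CHAC1 thus shared PHGDH and PSAT1 among their nearest genes, although the log2 fold changes of these were smaller. PHGDH stood at 26.8, 21.4 and 19.8 CPM with HBG1 sgRNA and DMSO, at 14.1, 9.31 and 10.3 with HBG1 sgRNA and rapamycin, at 18.7 in the non-targeting DMSO library and at 11.0 and 9.64 with non-targeting sgRNA and rapamycin. Its log2 fold change with the non-targeting sgRNA was -0.86 (edgeR adjusted p = 0.102), and that of PSAT1 was -1.05.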

How the data were processed

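Per the labels, mRNA of 9 K562-FIRE samples was selected on poly-T beads and sequenced from NEBNext Ultra libraries. The deposited values are unnormalized read counts, 1 row per Ensembl gene ID and 1 column per library. The submitters' processing notes list STAR 2.7.3a, featureCounts, Subread 2.0.0, R 4.1.2, edgeR 3.24.0, limma 3.34.9 and GRCh38 (hg38). Their roles, the strand setting, the annotation release and the handling of reads that map to several places are not given in the sources used here. Positions and exon lengths are from GENCODE 29, which holds 99.47% of the IDs, and promoters from RefSeq.

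Sample titles gave each library its group and replicate number. The deposited counts were fitted with edgeR 4.0.16 in R 4.3.3: filterByExpr by group at a minimum count of 10 (23675 genes), TMM factors of 0.977 to 1.02, and one quasi-likelihood fit of 9 libraries with 1 mean per group. Genes were called at a Benjamini-Hochberg adjusted p under 0.05 over all genes tested. The SE is the log2 fold change over the square root of F. CPM levels use the TMM-scaled library sizes and were computed here. The alternatives were no filter, RLE and upper quartile scaling, DESeq2 1.42.0, limma 3.58.1 voom, replicate blocks, and each library left out.

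The members and lists were chosen with earlier results of these data known. All members are named, and per list up to 2 genes at each end of the non-targeting response whose mean log2 CPM reached 1. Relatives may all be named. Likeness used genes whose mean log2 CPM reached 3. Same-numbered HBG1 libraries deviated together (r = 0.557, 0.280 and 0.235 over 11548 genes), all over the limit of 0.1 at which the numbers were taken to pair them. Differently numbered libraries gave 0.260 (rapamycin 2 with DMSO 3) and 0.199 (rapamycin 3 with DMSO 2), so only replicate 1 was set apart by its number. For the non-targeting sgRNA, a single DMSO library left the pairing of treatments untested. Rapamycin libraries of the same number but different sgRNA gave r = -0.0509 for replicate 1 and -0.0594 for replicate 2. Both lay under the limit of 0.1. They give no ground for sharing numbers across sgRNAs, as the replicate block over all libraries does. Replicates differed beyond sampling noise (chi-square per gene 4.74 to 18.6), so none was a copy of another. This does not tell separate cultures from separate preparations of the same culture.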

Additional observations from a re-analysis of the deposited data

How the results depend on the processing

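Log2 fold changes of the 9 members kept their direction in every alternative run for both rapamycin responses, and no scaling tried moved the median of all genes by over 0.1. With the non-targeting sgRNA 4 members were called, and the count ran from 3 to 6 over the fits that left out an HBG1 library. Fits without a non-targeting rapamycin library set 1 library against 1, so no count is read from them. The 4 calls rest on having both of these libraries. The count was 6 with no filter and with DESeq2, 4 with RLE scaling and limma voom, and 3 with upper quartile scaling. With the replicate block over all libraries it was 6, as with the replicate block within each sgRNA. ATF4 and DDIT3 were added to the calls in both, and the blocks changed no other member's call. The block over all libraries takes replicate numbers as shared between sgRNAs, a pairing of which the rapamycin libraries gave no sign.

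Over all genes the 211 calls of this response became 668 with no filter, 720 with DESeq2, 376 with the replicate block over all libraries, 774 with the block within each sgRNA, 85 without the HBG1 DMSO libraries and 0 to 514 with 1 library left out. The 7 calls between sgRNAs under rapamycin became 91 with no filter, 13 with DESeq2, 21 with the block and 3 to 8 with 1 library left out. The 6 under DMSO became 23 with no filter, 13 with the block and 6 to 8 with 1 library left out. The 1 call for the difference in response became 8 with no filter, 0 with DESeq2, 3 with limma voom, 3 and 5 with the blocks and 0 to 4 with 1 library left out. No member was among the calls of these 3 comparisons under any alternative run. The largest log2 difference of the 9 members ran, with 1 library left out, from 0.30 to 0.48 between sgRNAs under rapamycin, from 0.45 to 0.58 under DMSO and from 0.35 to 0.93 for the difference in response, where the gene was DDIT3 or CHAC1. The causes were not tested. The single non-targeting DMSO library could not be left out of the comparisons that need it. CHAC1 and VLDLR had too few counts for changes of this size to be placed with precision.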
